A study of Mus musculus with 14 samples.

Results

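Transcripts of 8 genes for transporters of neutral and basic amino acids were followed in cytosolic mRNA of 4T1 tumor spheroids: *Slc3a2*, *Slc7a1*, *Slc7a5*, *Slc7a6*, *Slc7a11*, *Slc38a1*, *Slc38a2* and *Slc6a9*. They were chosen by their symbols, with earlier results of these data known. All 8 were among the 19525 genes of the count table, with counts in all 14 libraries. 4T1 is a mouse triple-negative breast cancer line, and its cells formed spheroids during 5 days in a lung-like medium, which imitates the nutrient levels of lung interstitial fluid, over soft agar with horse serum, Matrigel and collagen I. Each line carried a stably integrated hairpin and was a polyclonal population selected with puromycin. Spheroids with a scrambled control hairpin received 700 µM aspartate (ASP shSCR, n = 4) or 0 µM (NoASP shSCR, n = 3), whereas spheroids with a hairpin against *Grin2d*, an NMDA receptor subunit (ASP shGRIN2D, n = 3), or *Dhps*, the first enzyme of eIF5A hypusination (ASP shDHPS, n = 4), received 700 µM aspartate only. The replicates were separate spheroid pellets according to the study's methods. No source used here says that the lines were infected more than once, so the spread between replicates is that between cultures. No further hairpin and no rescue of a target are labelled among these libraries. Effects of losing the target therefore cannot be told apart from other effects of the hairpin or line.

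Amino acids enter and leave cells through carriers that differ in what they take and in what drives them. SLC3A2 is the heavy chain that brings several light chains of the SLC7 family to the plasma membrane, among them SLC7A5, which exchanges large neutral amino acids such as leucine, SLC7A6, which exchanges basic for neutral amino acids, and SLC7A11, which takes up cystine in exchange for glutamate. SLC7A1 carries arginine and lysine without a heavy chain, SLC38A1 and SLC38A2 take up small neutral amino acids such as glutamine and alanine together with sodium, and SLC6A9 takes up glycine with sodium and chloride. Several of these genes are known targets of ATF4, the transcription factor of the amino acid response, and *Slc7a11* is also a known target of NRF2, the factor of the oxidative stress response.

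Silencing of *Dhps* was accompanied by higher *Slc3a2* and *Slc7a6* transcripts, by 24.3% and 40.3%, and these were the 2 of 8 transporters that passed the test in any comparison (edgeR quasi-likelihood test, adjusted p under 0.05 over all genes). Under this hairpin, 1.65% of all 19525 genes were called higher and 2.57% lower. The other light chain partners of SLC3A2, *Slc7a5* and *Slc7a11*, did not pass the test. Aspartate and the *Grin2d* hairpin gave 0 of 8 each, and the same was found for the direct comparison of both hairpins. The share of all genes called was 0% for aspartate. It was 0.425% higher and 0.732% lower for the *Grin2d* hairpin, and 1.2% and 1.62% between both hairpins. The largest fold change outside these calls was that of *Slc6a9* in ASP shGRIN2D, which lay above every ASP shSCR library but missed the threshold after adjustment. The comparisons of each hairpin with ASP shSCR share these 4 control libraries.

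RefSeq promoter windows, which reach from 250 bases before the transcription start to 50 bases after it, were on hand for 6 of the 8 genes (10 windows). *Slc7a5* and *Slc38a1* had no entry. The windows of the pair called under the *Dhps* hairpin are shown beside that of *Slc7a11*, a relative that was not called. All 3 are given 5′ to 3′ on the strand of the gene, in build GRCm38.p6: *Slc3a2* at chr19:8713848-8714147 (minus strand), *Slc7a6* at chr8:106168604-106168903 (plus strand) and *Slc7a11* at chr3:50443564-50443863 (minus strand). Capitals mark matches to TGATGNAA, the element bound by ATF4 and C/EBP factors, or to TGACNNNGC, the element bound by NRF2, on either strand.
Slc3a2: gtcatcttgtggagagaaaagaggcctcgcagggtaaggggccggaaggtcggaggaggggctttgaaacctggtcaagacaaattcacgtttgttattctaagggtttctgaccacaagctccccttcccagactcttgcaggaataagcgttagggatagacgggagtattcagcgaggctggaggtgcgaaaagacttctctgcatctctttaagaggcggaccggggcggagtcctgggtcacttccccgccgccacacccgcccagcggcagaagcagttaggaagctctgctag
Slc7a6: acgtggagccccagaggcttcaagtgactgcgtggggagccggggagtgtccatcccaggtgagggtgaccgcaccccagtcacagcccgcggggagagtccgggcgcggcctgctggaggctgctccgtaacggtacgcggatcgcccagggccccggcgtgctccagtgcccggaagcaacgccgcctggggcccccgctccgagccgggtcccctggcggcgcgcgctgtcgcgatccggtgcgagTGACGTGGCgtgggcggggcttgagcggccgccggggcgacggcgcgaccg
Slc7a11: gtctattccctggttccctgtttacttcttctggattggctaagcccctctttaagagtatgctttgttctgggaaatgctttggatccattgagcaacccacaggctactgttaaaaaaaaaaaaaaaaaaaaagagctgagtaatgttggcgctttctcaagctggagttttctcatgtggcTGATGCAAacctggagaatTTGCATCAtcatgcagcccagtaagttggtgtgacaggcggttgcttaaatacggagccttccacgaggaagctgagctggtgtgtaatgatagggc

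The *Slc3a2* window held neither motif. The *Slc7a6* window held 1 match to the NRF2 element, TGACGTGGC, from base -1 to base 8, counted with the start site as base 1. From the other start site of *Slc7a6* in RefSeq, the same match lies at -68 to -60. The *Slc7a11* window held a facing pair of matches to the ATF4 element, TGATGCAA from -66 to -59 and TTGCATCA on the opposite strand from -47 to -40. No other one of the 6 genes with a window had a match to the ATF4 element, which 3.97% of all 32851 promoter windows of this length and 4.51% of the 27025 genes with such a window held. Matches to the NRF2 element lay in windows of 4 of the 6 genes (*Slc7a1*, *Slc7a6*, *Slc38a2* and *Slc6a9*), against 14% of all genes with a window and 12.4% of all windows, and the genes shown here have between 1 and 3 windows each. No motif set the called pair apart from the others, and a match is a run of letters and not a measured binding site.

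Library depth was similar across groups, with total counts between 12731123 and 23231378, and the transporter with the fewest reads, *Slc7a6*, still had between 429 and 965 counts a library. On the first principal component, replicate 2 of ASP shSCR (-31.8) and of NoASP shSCR (-24.3) stood apart from the other shSCR libraries (-8.59 to 7.58), and ASP shDHPS replicate 1 lay at the other end (30.8). The *Dhps* transcript itself fell from 19.4 CPM (reads scaled to a common library size by TMM factors) in ASP shSCR to 6.93 CPM in ASP shDHPS, a log2 fold change of -1.48 ± 0.15 (SE; edgeR quasi-likelihood test, adjusted p = 8.3e-06). *Grin2d* was at 3.6 CPM in ASP shSCR and 2.46 CPM in ASP shGRIN2D, with no overlap of the libraries but an adjusted p of 0.516. All 7 epithelial markers were abundant (*Krt8* between 1260 and 1790 CPM), and their summed level was 5030 to 5240 CPM in both shSCR groups, 3800 to 4100 CPM in ASP shGRIN2D and 3960 to 4650 CPM in ASP shDHPS. The part of this difference in the transporter results was not tested. Markers of immune and endothelial cells summed to at most 1.08 and 0.55 CPM with *Cd3e*, *Adgre1* and *Kdr* not in the table, and among fibroblast markers *Pdgfra* reached 40.7 CPM while *Dcn* had at most 1 count and *Lum* and *Col3a1* were not in the table.

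Levels of different genes were compared per kilobase of the principal coding transcript. *Slc3a2* stood highest at 89.9 ± 10.5 CPM per kilobase (SD, n = 14 libraries). *Slc38a2* and *Slc7a5* followed at 50.6 ± 4.32 and 50.5 ± 6.12 CPM per kilobase, which did not differ beyond their spread. The next step held *Slc7a11* (22.9 ± 2.98), *Slc6a9* (22.6 ± 4.69) and *Slc38a1* (22.3 ± 2.05 CPM per kilobase), again within each other's spread. *Slc7a1* lay at 17.7 ± 2.44 and *Slc7a6* was the lowest at 10.3 ± 1.85 CPM per kilobase. The place of *Slc38a1* depends on the transcript, since its shortest principal transcript would put it at 51.0 CPM per kilobase. The shared heavy chain was thus measured at a higher level than each of the light chains *Slc7a5*, *Slc7a11* and *Slc7a6*.

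**Figure D1:**
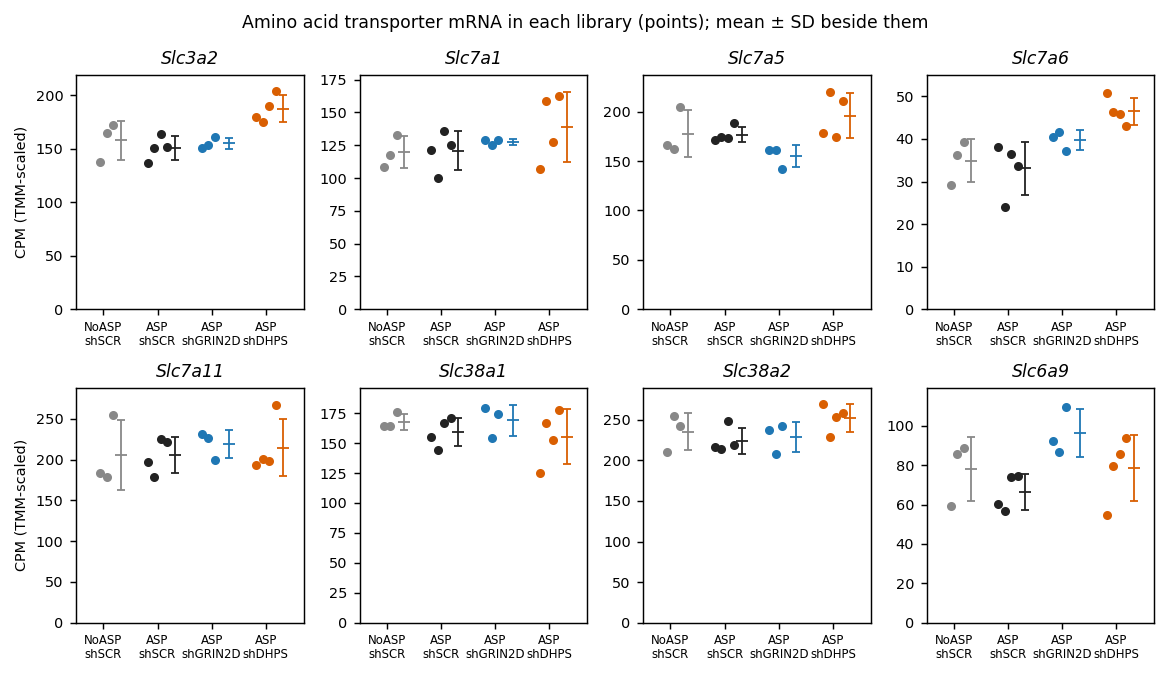
TMM-scaled CPM (vertical axes, from 0) of the 8 transporters in the 14 libraries, in replicate order within each group, with the mean ± SD beside the points. The 4 ASP shDHPS libraries are the highest of all for *Slc3a2* (175.0 to 203.4 CPM) and for *Slc7a6* (43.0 to 50.7 CPM), whereas *Slc7a11*, *Slc38a1* and *Slc7a1* overlap between all groups.

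ASP shDHPS was set against ASP shSCR to ask what differs in spheroids with the *Dhps* hairpin in the presence of aspartate. For the heavy chain *Slc3a2*, the ASP shSCR libraries had 136.7, 150.1, 163.7 and 151.5 CPM, and the ASP shDHPS libraries 179.9, 175.0, 190.1 and 203.4 CPM. Every ASP shDHPS library lay above every ASP shSCR library and also above the 3 NoASP shSCR libraries (137.3, 164.4 and 172.0 CPM) and the 3 ASP shGRIN2D libraries (150.7, 153.6 and 160.5 CPM). The group means were 187.1 and 150.5 CPM, a log2 fold change of 0.31 ± 0.087 (SE) with a 95% confidence interval of 0.13 to 0.49, and an adjusted p of 0.042 (edgeR). In percent, the rise was 24.3%, with an interval of 9.73% to 40.9%. In bulk RNA, a change in all cells and a change in the share of cells that carry a transcript cannot be told apart.

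*Slc7a6*, the exchanger of basic for neutral amino acids, had 38.0, 24.1, 36.6 and 33.7 CPM in ASP shSCR and 50.7, 46.2, 46.0 and 43.0 CPM in ASP shDHPS. These groups did not overlap, and the lowest ASP shSCR value was that of replicate 2, one of the libraries that stood apart. NoASP shSCR had 29.3, 36.3 and 39.2 CPM and ASP shGRIN2D 40.5, 41.7 and 37.2 CPM, so that the 4 ASP shDHPS libraries were again the highest of the 14. Mean CPM was 46.5 against 33.1, the log2 fold change was 0.49 ± 0.12 (SE) with an interval of 0.23 to 0.74, and the adjusted p was 0.0236 (edgeR). This was a rise of 40.3%, with an interval of 17.7% to 67.2%.

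These calls were 2 of 8 transporters higher and 0 of 8 lower, where 1.65% of the 19525 genes tested were called higher and 2.57% lower. CPM ranges of the groups did not overlap for the same 2 of 8, against 11.1% of all genes. At an unadjusted p under 0.05 (edgeR) there were 2 of 8 transporters and 19.3% of all genes. The shares over all genes include genes with few counts, since filterByExpr kept 13421 of the 19525. The median log2 fold change was 0.186 over the 8 transporters and 0.00456 over all genes, with 7 of 8 positive. Both calls lie near the threshold. Leaving out 1 library at a time kept *Slc3a2* called in 3 of 8 refits (adjusted p between 0.0379 and 0.117, log2 fold change between 0.27 and 0.36), and it was lost without ASP shSCR replicate 1, 2 or 4 or ASP shDHPS replicate 3 or 4. *Slc7a6* stayed called in 4 of 8 refits (adjusted p between 0.0181 and 0.0782, log2 fold change between 0.36 and 0.56), and it was lost without ASP shSCR replicate 2 or 4 or ASP shDHPS replicate 1 or 3. With both shSCR replicate 2 libraries and ASP shDHPS replicate 1 left out, *Slc3a2* was at 0.33 (adjusted p = 0.0184) and *Slc7a6* at 0.32 (adjusted p = 0.0456, edgeR). This setting was chosen after seeing the data and is 1 of those in the plot of adjusted p by setting.

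**Figure D2:**
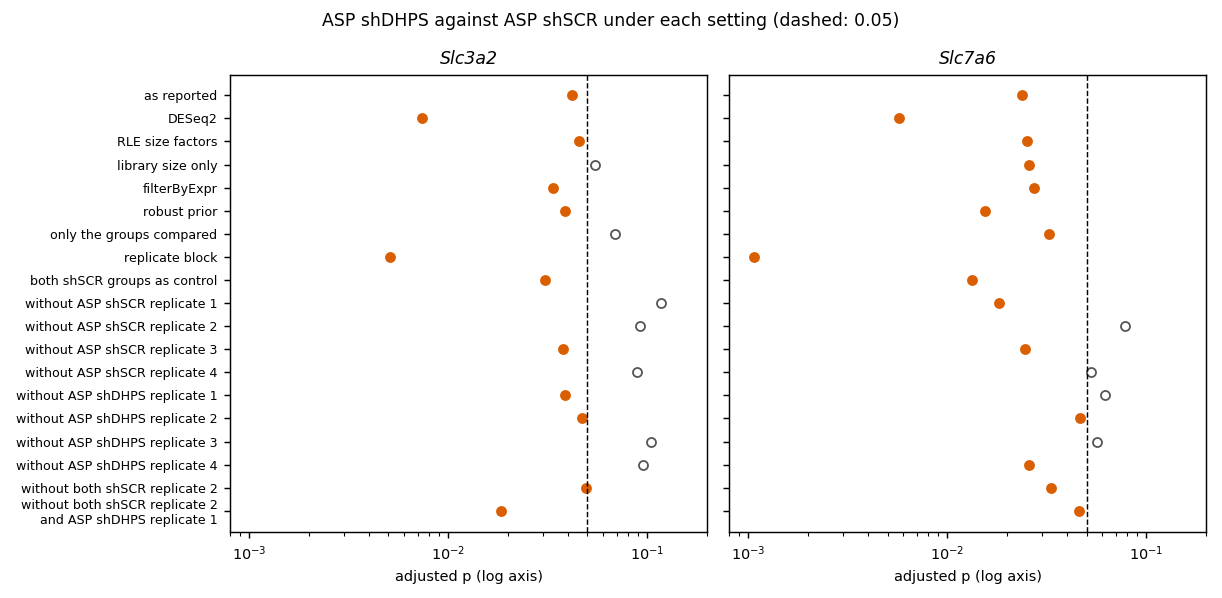
Adjusted p (horizontal, log axis) of *Slc3a2* and *Slc7a6* for ASP shDHPS against ASP shSCR in the fit reported and under each of 18 other settings (rows); filled points lie under 0.05, marked by the dashed line. *Slc3a2* lies under it in 11 and *Slc7a6* in 14 of the 18 other settings, and no value exceeds 0.117. The settings without both shSCR replicate 2 libraries, with or without ASP shDHPS replicate 1, were chosen after seeing the data. Both genes lie under 0.05 in these settings.

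The other 6 transporters did not pass the test under the *Dhps* hairpin. *Slc7a5*, the leucine exchanger, had 171.1, 174.4, 173.4 and 188.1 CPM in ASP shSCR and 178.7, 220.3, 174.2 and 210.6 CPM in ASP shDHPS. Replicates 2 and 4 of ASP shDHPS were above all ASP shSCR libraries and replicates 1 and 3 lay among them, with a log2 fold change of 0.15 (interval -0.048 to 0.35, adjusted p = 0.405, edgeR). For *Slc7a11*, the cystine carrier, the values were 196.4, 178.6, 224.9 and 222.0 CPM in ASP shSCR and 193.1, 200.9, 197.8 and 266.5 CPM in ASP shDHPS. The groups overlapped except for ASP shDHPS replicate 4, and the log2 fold change was 0.063 (interval -0.19 to 0.31, adjusted p = 0.827, edgeR).

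*Slc7a1*, the carrier of arginine and lysine, had 121.6, 100.3, 136.2 and 125.5 CPM in ASP shSCR. In ASP shDHPS it spread more widely, with 106.8, 158.8, 127.5 and 162.7 CPM and a log2 fold change of 0.20 (interval -0.042 to 0.44, adjusted p = 0.356, edgeR). Of the sodium-coupled carriers, *Slc38a2* had 216.3, 214.4, 248.4 and 218.6 CPM in ASP shSCR and 269.8, 228.7, 253.1 and 259.2 CPM in ASP shDHPS, where replicate 2 lay inside the ASP shSCR range (log2 fold change 0.17, interval -0.010 to 0.35, adjusted p = 0.290, edgeR). Its relative *Slc38a1* had 155.3, 144.6, 166.8 and 170.8 CPM against 125.1, 166.6, 152.4 and 178.0 CPM, with a log2 fold change of -0.035 (interval -0.24 to 0.17, adjusted p = 0.890). ASP shDHPS replicate 1 held the lowest *Slc38a1* and the highest *Slc38a2* value of the 14 libraries.

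For the glycine carrier *Slc6a9*, ASP shDHPS gave 54.7, 79.5, 85.4 and 93.6 CPM against 60.1, 56.6, 73.9 and 74.5 CPM in ASP shSCR. Replicate 1 of ASP shDHPS lay below all ASP shSCR libraries and the other 3 above them, with a log2 fold change of 0.24 (interval -0.061 to 0.55, adjusted p = 0.373, edgeR). Changes of up to 46.0% upward are inside this interval, so the spread does not show that *Slc6a9* was the same in both groups.

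ASP shGRIN2D was compared with ASP shSCR to see what differs in spheroids with the *Grin2d* hairpin when aspartate is present. *Slc6a9* had 92.3, 86.7 and 109.8 CPM in ASP shGRIN2D, all above the 56.6 to 74.5 CPM of ASP shSCR, whereas NoASP shSCR (59.4, 85.8 and 88.6 CPM) overlapped with both. The log2 fold change was 0.54 ± 0.16 (SE), with an interval of 0.21 to 0.86, or 45.4% higher (16.1% to 82.1%). Its unadjusted p was 0.00231, and its adjusted p of 0.118 (edgeR) missed the threshold. In the genome annotation used, 1429 exon bases of *Slc6a9* are also covered by *Ccdc24* on the opposite strand, and whether the counting used strand is not given in the sources used here. A call was made by edgeR in 3 of 17 other settings. These were only the groups compared (adjusted p = 0.0114) and the replicate block (adjusted p = 6.9e-05). The third, chosen after seeing the data, left out both shSCR replicate 2 libraries and ASP shDHPS replicate 1 (adjusted p = 0.00644). The 7 refits without 1 library gave no call (adjusted p between 0.112 and 0.491). Over genes averaging 5 CPM or more, same-numbered libraries of these groups did not deviate together (r = -0.101, -0.117 and 0.042 in replicates 1, 2 and 3). For *Slc6a9* itself, ASP shSCR replicates 1, 2 and 3 had 60.1, 56.6 and 73.9 CPM, in the same order as ASP shGRIN2D. What the numbers stand for is not given.

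*Slc7a5* stood lower in ASP shGRIN2D, with 161.3, 161.6 and 141.8 CPM, all below the lowest ASP shSCR library at 171.1 CPM. Its log2 fold change was -0.19 (interval -0.40 to 0.025, adjusted p = 0.543, edgeR). *Slc7a6*, with 40.5, 41.7 and 37.2 CPM, overlapped with ASP shSCR only through replicate 1 of that group, at a log2 fold change of 0.27 (interval -0.0081 to 0.54, adjusted p = 0.502, edgeR). The remaining 5 transporters had log2 fold changes between 0.030 (*Slc38a2*) and 0.091 (*Slc7a11*) with overlapping ranges. In ASP shGRIN2D, *Slc7a1* had 128.8, 125.1 and 129.2 CPM, *Slc7a11* 230.8, 226.7 and 199.0 CPM, *Slc38a1* 179.0, 154.1 and 174.2 CPM and *Slc38a2* 237.7, 207.5 and 242.1 CPM. In all, 0 of 8 transporters were called, where 0.425% of all genes were called higher and 0.732% lower, and the ranges did not overlap for 2 of 8 against 12% of all genes.

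Aspartate itself was compared in control spheroids, ASP shSCR against NoASP shSCR. None of the 8 transporters was called by edgeR, and the share called among all genes was 0% as well. At an unadjusted p under 0.05 there were 424 genes and 0 transporters, and DESeq2 also called 0 transporters. With the replicate block in the 7 shSCR libraries, edgeR called 64 genes, and 0 transporters were among them. All 8 overlapped between the groups, where 2.71% of all genes did not. *Slc6a9* was farthest from 0, with 66.3 CPM with aspartate and 77.9 CPM without it, a log2 fold change of -0.23 (interval -0.56 to 0.091). The others lay between -0.076 (*Slc7a6*) and 0.013 (*Slc7a1*), and 6 of 8 were negative.

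NoASP shSCR replicates 2, 3 and 4 had 108.6, 117.9 and 133.1 CPM of *Slc7a1*, 166.6, 161.8 and 204.8 CPM of *Slc7a5*, and 183.0, 178.4 and 254.9 CPM of *Slc7a11*. For the sodium-coupled carriers they had 164.0, 164.1 and 175.7 CPM of *Slc38a1* and 210.0, 254.6 and 242.6 CPM of *Slc38a2*. Replicate 4 was the highest of this group for every transporter except *Slc38a2*, and the range within NoASP shSCR exceeded the difference of the group means for all 8. Same-numbered libraries of both groups deviated together, and within these 3 pairs *Slc6a9* was lower with aspartate each time (56.6 against 59.4, 73.9 against 85.8 and 74.5 against 88.6 CPM), the only transporter with the same sign in all 3. With the replicate block its log2 fold change was -0.14 ± 0.10 (SE, adjusted p = 1, edgeR) over all 14 libraries and -0.18 ± 0.077 (SE, adjusted p = 0.857) in the 7 shSCR libraries. Without the block, the confidence intervals of all 8 genes together ran from -0.56 to 0.28 on the log2 scale. Changes inside the interval of each gene are not excluded by these libraries.

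**Figure D3:**
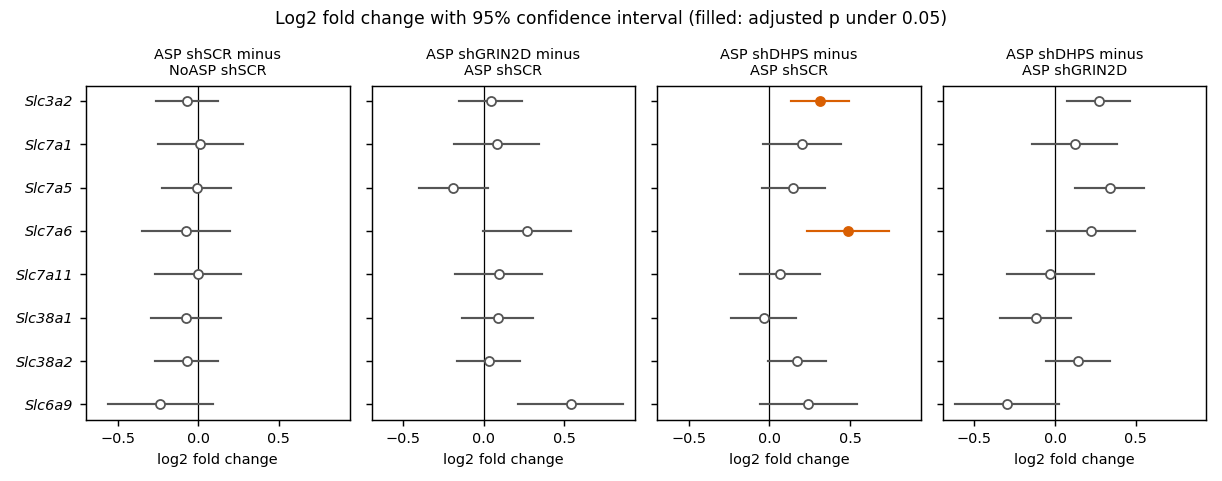
Log2 fold change of each transporter (points) with its 95% confidence interval (lines) in the 4 comparisons; filled points passed at an adjusted p under 0.05. *Slc3a2* (0.31) and *Slc7a6* (0.49) are filled for ASP shDHPS minus ASP shSCR, while the intervals of *Slc6a9* in ASP shGRIN2D and of *Slc3a2* and *Slc7a5* between the hairpins exclude 0 without an adjusted p under the threshold.

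Direct comparison of ASP shDHPS with ASP shGRIN2D, which shares no shSCR library with the results above except through the common spread, called 0 of 8 transporters. Among all genes, 1.2% were called higher and 1.62% lower. *Slc7a5* was 195.9 CPM in ASP shDHPS and 154.9 CPM in ASP shGRIN2D, with no overlap of the libraries, a log2 fold change of 0.34 ± 0.10 (SE; interval 0.12 to 0.55) and an adjusted p of 0.0868 (edgeR). *Slc3a2* was 0.27 ± 0.094 (SE; interval 0.076 to 0.47) higher on the log2 scale, with an adjusted p of 0.142. *Slc7a6* also did not overlap, at a log2 fold change of 0.22 and an adjusted p of 0.448, so that its difference between both hairpins was not shown. Ranges did not overlap for these 3 of 8, against 15.1% of all genes. *Slc6a9* lay on the other side at -0.30 (interval -0.62 to 0.027, adjusted p = 0.383), and the remaining 4 lay between -0.12 (*Slc38a1*) and 0.14 (*Slc38a2*).

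Ratios of counts within a library do not depend on how libraries are scaled. *Slc7a11* to *Slc7a5*, the cystine against the leucine light chain, was 1.41 ± 0.016 in ASP shGRIN2D (SD, n = 3, range 1.4 to 1.43). The same ratio was 1.16 ± 0.11 in ASP shSCR (n = 4, 1.02 to 1.3), 1.15 ± 0.083 in NoASP shSCR (n = 3, 1.10 to 1.24) and 1.10 ± 0.15 in ASP shDHPS (n = 4, 0.912 to 1.27). All 3 ASP shGRIN2D libraries were therefore above the other 11, although neither gene was called on its own, and no test was made. *Slc7a5* alone already separated them, at no more than 161.6 CPM in ASP shGRIN2D and no less than 161.8 CPM elsewhere. How many other pairs of genes separate as well was not examined. *Slc7a6* to *Slc7a5* was 0.188 ± 0.037 in ASP shSCR and 0.197 ± 0.025 in NoASP shSCR, against 0.257 ± 0.0055 in ASP shGRIN2D and 0.240 ± 0.040 in ASP shDHPS. The ASP shGRIN2D libraries (0.251 to 0.262) lay above all shSCR libraries (0.138 to 0.224), and ASP shDHPS (0.204 to 0.284) overlapped with them. *Slc38a1* to *Slc38a2* was between 0.711 and 0.738 on average in the other groups and 0.620 ± 0.12 in ASP shDHPS, where replicate 1 at 0.464 was the lowest library.

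**Figure D4:**
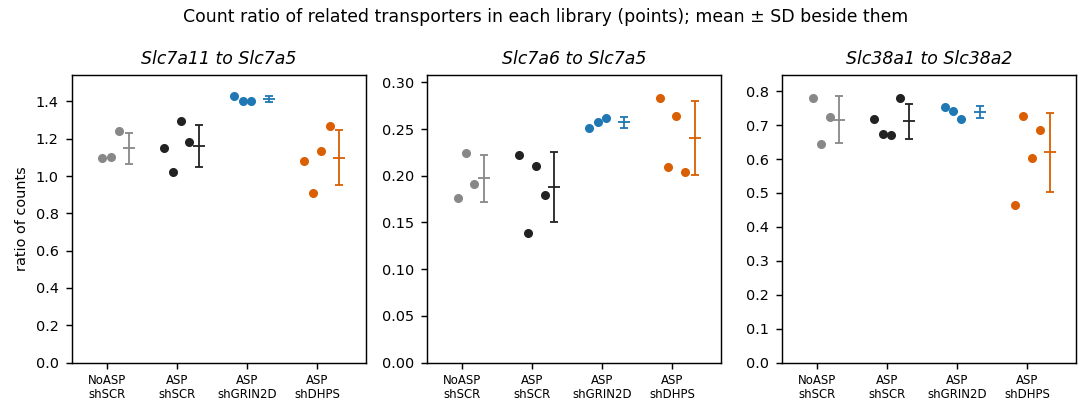
Ratio of counts (vertical axes, from 0) of *Slc7a11* to *Slc7a5*, *Slc7a6* to *Slc7a5* and *Slc38a1* to *Slc38a2* in each library, with the mean ± SD of each group beside the points. The 3 ASP shGRIN2D libraries sit between 1.4 and 1.43 for the first ratio, above the other 11 libraries.

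Other carriers of neutral and basic amino acids served as a comparison. This list and those that follow were also chosen with earlier results of these data known. Of 35 listed, 21 were in the table and 19 had more than 3 counts in a library. Several of these still lay near the floor and could hardly be called, such as *Slc7a2*, *Slc7a14* and *Slc38a3* with at most 6, 9 and 4 counts. Under the *Dhps* hairpin, 0 of 21 were called higher and 1 lower (4.76%, against 2.57% of all genes): *Slc43a2*, a carrier of large neutral amino acids, fell from 81.2 to 42.3 CPM (log2 fold change -0.94 ± 0.21 SE, adjusted p = 0.0122, edgeR). This call was lost without ASP shDHPS replicate 3 (adjusted p = 0.0511), and without both shSCR replicate 2 libraries and ASP shDHPS replicate 1 the log2 fold change was -0.55 (adjusted p = 0.0105). The median log2 fold change of the list was -0.0708, whereas it was 0.186 for the 8 transporters above. As the list holds genes near the floor and the 8 are abundant, these medians are not a like comparison. None of the 21 was called in the other 3 comparisons.

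A list of 25 ATF4 response genes, which holds no amino acid carrier, was in the table whole. Under the *Dhps* hairpin 3 of 25 rose, *Atf3* (log2 fold change 1.31, adjusted p = 0.000103), *Chac1*, which breaks down glutathione (1.12, adjusted p = 6.4e-05), and *Ddit3* (0.76, adjusted p = 0.0217), and 1 fell, the cysteine-making enzyme *Cth* (-0.88, adjusted p = 0.00837). Over all genes, 1.65% were called higher and 2.57% lower. Between both hairpins 6 of 25 were higher in ASP shDHPS: *Chac1* (1.13), *Ddit3* (0.78), *Atf3* (0.74), *Mthfd2* of mitochondrial folate metabolism (0.57), *Eif4ebp1*, an inhibitor of cap-dependent translation (0.41), and *Phgdh* of serine synthesis (0.35), with adjusted p between 8.9e-05 and 0.0402, where 1.2% of all genes were called higher and 1.62% lower; 0 of 25 were lower. The counts for the *Grin2d* hairpin and for aspartate were 0 of 25. *Ddit3* lost its call under the *Dhps* hairpin without ASP shSCR replicate 1 or 4 or ASP shDHPS replicate 3 (adjusted p up to 0.0971), while *Atf3*, *Chac1* and *Cth* kept theirs in all 8 refits without 1 library. Between both hairpins only *Chac1* kept its call in all 7 such refits, *Eif4ebp1* lost it without ASP shGRIN2D replicate 1, *Atf3* without any 1 ASP shGRIN2D library or ASP shDHPS replicate 3, and *Ddit3*, *Mthfd2* and *Phgdh* without any 1 ASP shGRIN2D library or ASP shDHPS replicate 1, 2 or 3. The median log2 fold change was 0.174 under the *Dhps* hairpin and 0.224 between both hairpins, against 0.00456 and 0.0106 over all genes.

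Genes through which mTORC1 senses amino acids were 31 of 32 in the table. Under the *Dhps* hairpin 1 of 31 was called higher and 1 lower (3.23% each), near the 1.65% and 2.57% of all genes, and between both hairpins 1 of 31 was higher, against 1.2%. *Rragc*, a GTPase that recruits mTORC1 to lysosomes, rose under the *Dhps* hairpin (0.31, adjusted p = 0.0334), and *Sesn3*, of the sestrin family, fell (-0.89, adjusted p = 0.00279). *Nprl3*, a subunit of the GATOR1 complex that restrains mTORC1, was higher in ASP shDHPS than in ASP shGRIN2D (0.39, adjusted p = 0.0332). *Sesn3* kept its call in all 8 refits without 1 library, *Rragc* was called only without ASP shSCR replicate 4 or ASP shDHPS replicate 1, and *Nprl3* in none of 7. The median of the list was -0.0134 under the *Dhps* hairpin.

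Cystine use and NRF2 targets, the processes next to SLC7A11, gave 4 of 16 higher and 0 lower under the *Dhps* hairpin, where 1.65% of all genes were called higher and 2.57% lower. These were *Hmox1*, which degrades heme (1.28, adjusted p = 0.000514), *Chac1*, *Gclm*, a subunit of the enzyme that starts glutathione synthesis (0.61, adjusted p = 0.0177), and the quinone reductase *Nqo1* (0.46, adjusted p = 0.00638). *Gclm* lost its call without ASP shSCR replicate 2 or ASP shDHPS replicate 3 (adjusted p up to 0.0595), and the other 3 kept theirs. *Chac1* is also in the list of ATF4 response genes, so the calls of these lists are not separate. *Slc7a11* itself was not among the genes called, at 0.063. Under the *Grin2d* hairpin 1 of 16 was called, glutathione reductase *Gsr*, which fell by 0.53 on the log2 scale (adjusted p = 0.00175), where 0.732% of all genes were called lower and 0.425% higher. *Nqo1* (0.39) and *Chac1* were higher in ASP shDHPS than in ASP shGRIN2D (2 of 16, against 1.2% of all genes), the former without a call in 6 of 7 refits (all but that without ASP shGRIN2D replicate 2). Aspartate gave 0 of 16 in this list and 0 of 31 among the genes of mTORC1 sensing.

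**Figure D5:**
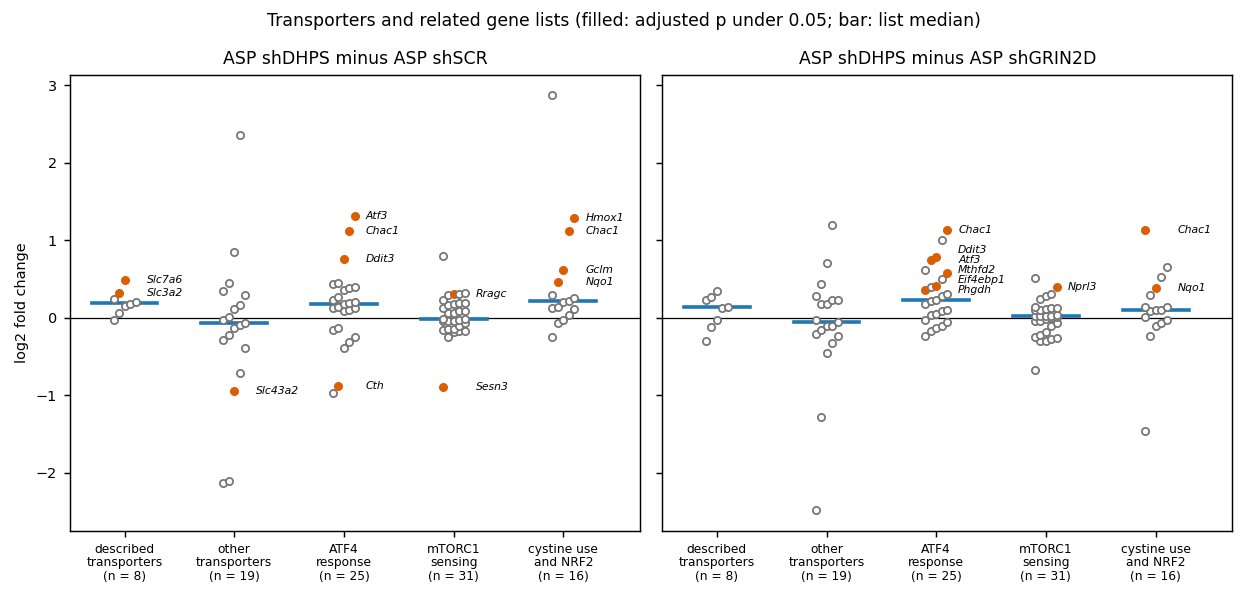
Log2 fold changes (vertical axis) of the 8 transporters and of 4 related gene lists for ASP shDHPS minus ASP shSCR and minus ASP shGRIN2D; each point is a gene with more than 3 counts in a library, filled and named at an adjusted p under 0.05, and the bar is the list median. The medians for ASP shDHPS minus ASP shSCR are 0.186 for the 8 transporters, -0.0708 for the other carriers, 0.174 for ATF4 response genes, -0.0134 for mTORC1 sensing and 0.211 for cystine use and NRF2 targets. The lists share *Sesn2*, *Chac1* and *Slc38a9*.

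Across the 14 libraries, log2 CPM of the transporters followed each other to differing degrees, as a description over libraries that share groups and the libraries that stood apart. *Slc3a2* and *Slc38a2* were the closest pair (Pearson r = 0.782), followed by *Slc38a1* and *Slc6a9* (0.705) and *Slc7a1* and *Slc7a11* (0.677), whereas *Slc7a6* and *Slc38a1* had r = -0.106. Among the 9860 genes averaging 5 CPM or more, the pattern of *Slc3a2* was most like those of *Ccn1* (r = 0.947) and *Sprtn* (0.925), that of *Slc7a6* like *Cdipt* (0.957) and *Tmem64* (0.955), and that of *Slc7a5* like *Ets1* (0.967) and *Rad18* (0.898). *Slc7a1* was nearest to *Fem1a* (0.926) and *C2cd2l* (0.903), and *Slc7a11* had the loosest neighbors, *Lrrc8d* (0.811) and *Btaf1* (0.775). *Slc38a1* was close to *Zmiz2* (0.927), *Slc38a2* to *Wsb1* (0.912) and *Cars* (0.901), and *Slc6a9* to *Ercc6* (0.930) and *Cwc25* (0.924). No r was tested.

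The letters TCATGAA, picked with earlier results of these data known and not tested here, occurred once in the longest 3′ UTR of *Slc7a1* and once in that of *Slc7a11*, and in none of the other 6. They occurred in 11.9% of 13980 genes with an annotated 3′ UTR, a share that was not matched for length. The 3′ UTRs of *Slc7a1* and *Slc7a11* have 5030 and 7364 bases, and those of the other 6 between 841 and 5293. In ASP shGRIN2D, *Slc7a1* and *Slc7a11* had log2 fold changes of 0.079 and 0.091, neither called.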

How the data were processed

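Cytosolic mRNA of 14 spheroid libraries was sequenced with a stranded kit. Per the submitters' processing notes and the study's methods, the authors trimmed reads with Trim Galore 0.6.6, mapped them with STAR 2.6.1 to GRCm39, estimated abundance with Salmon 1.4.0 and deposited rounded counts per gene, after dropping genes not expressed in 2 or more replicates of some condition. Counts that are shared between overlapping genes are estimates. The authors' own tables of fold changes, p-values and gene set scores were not used, and the deposited counts cover 19525 genes.

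Counts were tested with edgeR 4.0.16 in R 4.3.3: TMM factors, 1 quasi-likelihood fit of group means to all 14 libraries, 4 contrasts, and Benjamini-Hochberg adjustment over 19525 genes, called at an adjusted p under 0.05. The SE of a log2 fold change is its size over the square root of F, and intervals are at 95%. Log2 CPM used a prior count of 2. The script was tested on simulated counts. Total counts of 12731123 to 23231378 a library set the precision. No fold is given for genes that never exceeded 3 counts.

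The 8 transporters and the lists were chosen with earlier results of these data known. The naming rule took all 8 transporters, list genes called in a comparison (at most 6 a list), the nearest 2 genes by pattern, and *Dhps* and *Grin2d*; 1 gene that the rule gave is not reported here. *Lars*, listed under a later symbol, was matched by its name in the table, and *Rragb* was not in it. Transcript lengths and 3′ UTRs came from GENCODE vM21 (GRCm38), promoters from RefSeq (GRCm38.p6), neither being the build of the counts. Lengths had been planned from RefSeq.

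Same-numbered libraries of ASP shSCR and NoASP shSCR deviated together from their group means (r = 0.514, 0.287 and 0.203 in replicates 2, 3 and 4), so these numbers pair them by this measure; the labels leave the meaning of a number unstated. In the other comparisons at least 1 pair had r at or below 0.1. For ASP shDHPS and ASP shSCR, r was 0.258, 0.195, 0.201 and 0.0404 in replicates 1, 2, 3 and 4. Alternatives were DESeq2 1.42.0, RLE factors, library size only, filterByExpr, a robust prior, only the groups compared, both shSCR groups as control, the replicate block and leaving out each library. Fits without both shSCR replicate 2 libraries, with or without ASP shDHPS replicate 1, were chosen after seeing the data.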

Additional observations from a re-analysis of the deposited data

Results flagged for a closer look

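Among the 16 sets of 4 libraries examined (8 transporters in ASP shSCR and in ASP shDHPS), 2 had a library far from the rest by Dixon's criterion, which flags about 1 set in 20 by chance. *Slc7a11* was at 266.5 CPM in ASP shDHPS replicate 4 and between 193.1 and 200.9 CPM in the other 3 libraries, a gap of 0.894 of the range. *Slc38a2* was at 248.4 CPM in ASP shSCR replicate 3 and between 214.4 and 218.6 CPM in the other 3, a gap of 0.877 of the range. Neither gene was called in any comparison, and neither value was tested further.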

How the results depend on the processing

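No named result changed its direction while being called. For aspartate, 0 of 8 transporters were called in all 17 alternatives, although the replicate block in the 7 shSCR libraries raised the calls among all genes from 0 to 64. For the *Dhps* hairpin, the count of 2 became 1 with library size only and 1 with only the groups compared (*Slc7a6* in both), and it lay between 0 and 2 when 1 library was left out; it was 0 without ASP shSCR replicate 2, ASP shSCR replicate 4 or ASP shDHPS replicate 3. DESeq2, RLE factors, filterByExpr, the robust prior, both shSCR groups as control and the replicate block gave 2. For the *Grin2d* hairpin, the count of 0 became 1 (*Slc6a9*) with only the groups compared, with the replicate block and, chosen after seeing the data, without both shSCR replicate 2 libraries and ASP shDHPS replicate 1; leaving out 1 library gave 0 throughout. Between both hairpins, the count of 0 became 1 with DESeq2 (*Slc7a5*), 2 with the replicate block (*Slc7a5* higher, *Slc6a9* lower in ASP shDHPS) and 2 without both shSCR replicate 2 libraries and ASP shDHPS replicate 1 (*Slc3a2*, *Slc7a5*); leaving out 1 library gave 0. In these last 3 comparisons at least 1 same-numbered pair had r at or below 0.1. For the *Dhps* hairpin this was replicate 4 only, and the other pairs had r near those of the shSCR groups. With the replicate block, the adjusted p under the *Dhps* hairpin was 0.00508 for *Slc3a2* and 0.00106 for *Slc7a6* (edgeR). The cause of the shifts in these counts was not tested. Over all alternatives, all genes called ranged from 412 to 2150 for the *Dhps* hairpin (824 as reported), 86 to 611 for the *Grin2d* hairpin (226) and 209 to 1468 between both (550). Calls in the gene lists moved with them: ATF4 response genes called under the *Dhps* hairpin ranged from 3 to 12 and cystine use genes from 3 to 7. *Slc43a2* was lost with the robust prior. With 3 or 4 libraries a group, differences inside the intervals given are not excluded for genes that were not called.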
